A study of Mus musculus with 16 samples.

Results

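The SLAM family cluster is a run of 7 receptor genes on mouse chromosome 1, Cd244a, Ly9, Slamf7, Cd48, Slamf1, Cd84 and Slamf6. It was read here together with Sh2d1a on chromosome X, which encodes SAP, an adaptor that binds the tails of most of these receptors. The members were chosen by name, with positions from the RefSeq annotation of mm10, and make 8 of the 26089 genes with a curated transcript on the chromosomes that hold peaks. The cluster spanned chr1:171559193-171948958, 389.8 kb, and every peak was taken from 50 kb before Cd244a to 50 kb past Slamf6, a window of 489.8 kb. All 7 names fell in this interval in the annotation. Sh2d1a, chrX:42502565-42522097, was read with the same flanks.

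The data were chromatin immunoprecipitation sequencing (ChIP-seq) peak lists from CD8+ T cells of the spleens of OT1 mice, a strain with 1 transgenic T-cell receptor that recognises a peptide of ovalbumin. The cells of all groups were activated for 48 h with anti-CD3 and anti-CD28 and then expanded in IL-2 for 3 days. They received 0.5 μM GSK2879552 (GSK), which blocks the histone demethylase LSD1 irreversibly, or vehicle (Veh). For each treatment there was 1 library with each of 6 antibodies, which made 12 lists. The antibodies were to LSD1, to RNA polymerase II (Pol II) and to the histone marks H3K4me1, H3K4me2, H3K4me3 and H3K27ac. The cells were cultured T cells with 1 antigen receptor, so the values describe 1 in vitro state and not T cells in an animal. No list had a replicate, so no difference could be set against a spread between replicates, and no test or p-value for a difference is given.

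SLAM receptors are immunoglobulin-type proteins of the blood cell surface, and most bind a copy of themselves on a neighbouring cell. CD48 and CD244 instead bind each other. CD48 is held in the membrane by a lipid anchor, and the cytoplasmic tails of most others carry tyrosine motifs to which SAP docks, and SAP brings in the kinase FYN, so the same receptors can pass an activating or an inhibitory signal according to the adaptor present. SLAMF6, also called Ly108, is widely used as a surface marker of progenitor-like and memory-like CD8+ T cells. Among the chromatin marks, H3K4me3 is found at promoters in use, H3K4me1 and H3K4me2 at enhancers and promoter flanks, H3K27ac at active elements of both kinds, and the enzyme LSD1 erases mono- and dimethylation of H3K4.

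The genes lay in the order Cd244a, Ly9, Slamf7, Cd48, Slamf1, Cd84 and Slamf6. Ly9 and Slamf7 are read from the minus strand and the other 5 from the plus strand. The gaps between neighbours ran from 3.30 kb between Cd244a and Ly9 to 61.9 kb between Cd48 and Slamf1. The window held 120 of the 214352 peaks in all lists, 70 from Veh and 50 from GSK. By position, 26 overlapped the 1 kb on either side of a transcription start site (TSS) of a member, 4 that of another gene, 1 was centred in another part of an exon, 43 in introns and 46 between genes.

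**Figure D1:**
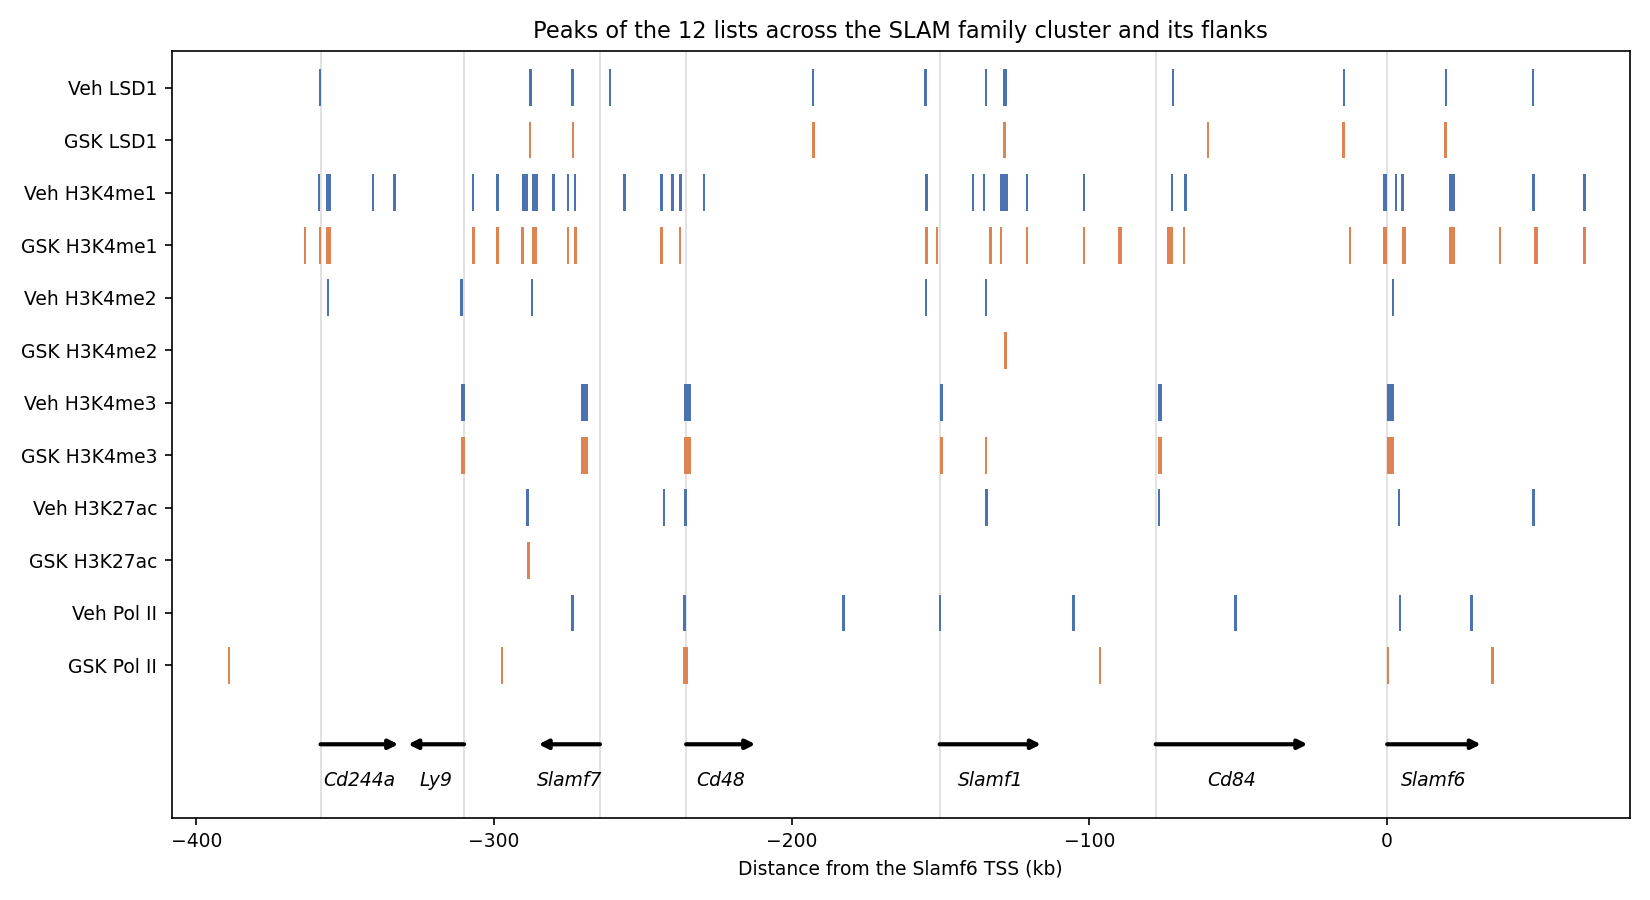
Peaks of the 12 lists (rows, Veh in blue, GSK in orange) against the distance from the Slamf6 TSS in kb, with the genes as arrows in the direction of transcription and grey lines at their 5′ ends. Peaks narrower than 0.8 kb are drawn 0.8 kb wide; the H3K4me3 rows line up at 6 promoters in both treatments, while the H3K27ac row holds 7 peaks in Veh and 1 in GSK.

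The LSD1 lists gave 14 distinct sites in the window, numbered here from Cd244a to beyond Slamf6. The sequences of 6 of the sites described below are shown. They are 101 bases centred on the LSD1 summit, read from the plus strand of mm10. Capitals mark matches, on either strand, to the letters of 3 transcription factor motifs, AP-1 (TGANTCA), RUNX (TGTGGT) and TCF/LEF (CTTTGA). Each of the 6 sequences holds a match, but sites 4, 6, 8, 10, 11 and 13, not shown, have none in their 101 bases. Site 2 lies at chr1:171629315-171629415, 3′ of Slamf7, and kept its LSD1 peak under GSK. Site 5, at chr1:171724615-171724715 between Cd48 and Slamf1, had the highest LSD1 fold of the window. Sites 7 and 9, at chr1:171782651-171782751 and chr1:171789544-171789644, lie in introns 3 and 4 of Slamf1 and had an LSD1 peak in Veh only. Site 12, at chr1:171902775-171902875, lies between Cd84 and Slamf6. Site 14, at chr1:171966208-171966308, is at the edge of the element downstream of Slamf6.
LSD1 site 2: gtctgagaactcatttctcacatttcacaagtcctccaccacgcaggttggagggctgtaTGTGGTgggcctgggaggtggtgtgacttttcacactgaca
LSD1 site 5: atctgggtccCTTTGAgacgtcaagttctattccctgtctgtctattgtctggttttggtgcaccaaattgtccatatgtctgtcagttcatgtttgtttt
LSD1 site 7: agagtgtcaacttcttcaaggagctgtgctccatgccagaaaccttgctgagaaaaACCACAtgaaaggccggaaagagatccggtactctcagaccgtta
LSD1 site 9: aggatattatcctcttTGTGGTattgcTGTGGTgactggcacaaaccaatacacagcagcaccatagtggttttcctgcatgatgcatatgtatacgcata
LSD1 site 12: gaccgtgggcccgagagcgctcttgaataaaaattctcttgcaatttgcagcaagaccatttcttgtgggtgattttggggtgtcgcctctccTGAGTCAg
LSD1 site 14: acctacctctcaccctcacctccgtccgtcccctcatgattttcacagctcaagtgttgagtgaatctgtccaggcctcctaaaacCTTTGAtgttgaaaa

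The RUNX letters were present within 200 bp centred on the summit at 6 of the 14 sites, 42.9%, the AP-1 letters at 2, 14.3%, and the TCF/LEF letters at 3, 21.4%. Over all Veh LSD1 summits of the genome the shares were 22.8%, 9.08% and 10.5%, and over all GSK summits 16.6%, 6.40% and 8.33%. In RefSeq promoters, from 250 bases before to 50 after a gene's start, 16.8%, 7.81% and 16.0% held them. The TCF/LEF letters can run into the AP-1 letters, and such overlaps were counted for both motifs. A match of a few letters in 14 windows is a description only.

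H3K4me3 was the most frequent promoter mark of the members. It lay at 7 of the 8 genes in both treatments, all but Cd244a. Of all genes, 50.2% had such a peak in Veh and 51.3% in GSK. None of the members had it in 1 treatment alone, against 0.333% of genes with a peak in Veh only and 1.48% in GSK only. The other antibodies marked between 0 and 3 members per list. H3K4me1 marked 2 members in Veh and 3 in GSK, with 30.4% and 36.9% of all genes marked. H3K4me2 marked 1 in Veh and 0 in GSK, with 39.2% and 28.3% of all genes. H3K27ac marked 2 in Veh and 1 in GSK, with 20.6% and 8.61% of all genes.

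Pol II lay at 3 members in each treatment, against 29.4% of all genes in Veh and 25% in GSK. LSD1 lay at 2 members in Veh and 1 in GSK, against 36.5% and 41.8% of all genes. Apart from the H3K4me3 lists, no list marked more than 3 of these 8 genes. Sh2d1a was marked in 7 of the 12 lists, Slamf6 and Cd48 in 5, Slamf1 in 4, Cd84, Cd244a and Ly9 in 3, and Slamf7 in 2.

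**Figure D2:**
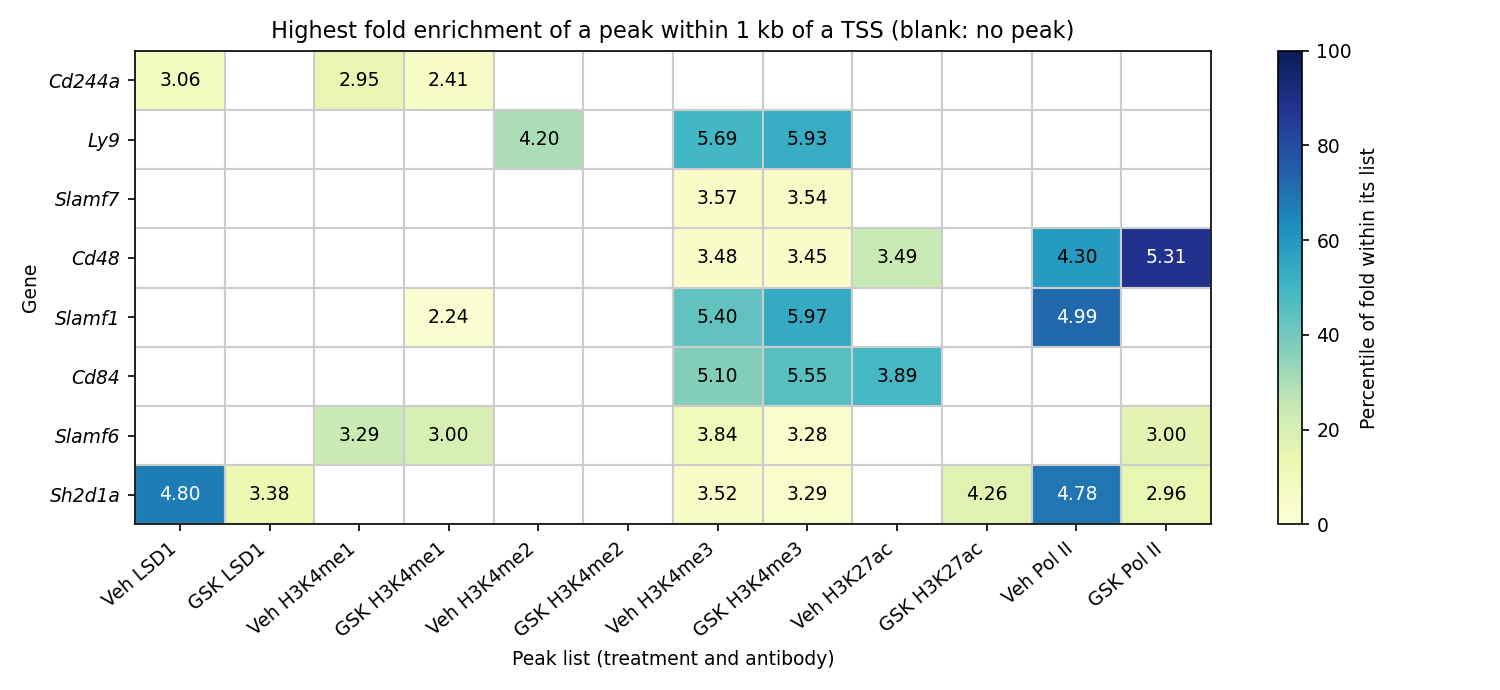
The highest fold enrichment of a peak within 1 kb of a TSS for each gene (rows) in each list (columns), with the colour giving its percentile among all peaks of that list and blank cells having no peak. The H3K4me3 columns are filled for 7 genes at folds from 3.28 to 5.97, and the H3K4me2 columns hold 1 value, 4.20 at Ly9 in Veh.

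The receptor Cd244a and its ligand Cd48 had unlike promoters. Cd244a, which encodes the receptor 2B4 of natural killer and some T cells, had no H3K4me3, H3K4me2, H3K27ac or Pol II peak at its TSS in either treatment. It had H3K4me1 in both, at a fold enrichment over background of 2.95 in Veh and 2.41 in GSK. It also had an LSD1 peak in Veh, at a fold of 3.06, percentile 8.08 of its list, and none in GSK. LSD1 peaks in Veh only were found at 4.46% of all genes and in GSK only at 9.78%.

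Cd48, which encodes a membrane-anchored ligand present on most blood cells, was marked at its TSS in 5 of the 12 lists, as Slamf6 was. Its H3K4me3 peak had a fold of 3.48 in Veh and 3.45 in GSK and was 2383 and 2371 bp wide. Pol II lay there in both lists, at a fold of 4.30 in Veh and 5.31 in GSK, or percentiles 59.3 and 88.8. Over the 5759 genes with a promoter Pol II peak in both lists the median GSK to Veh ratio of fold was 0.811 and 17.6% of genes were higher in GSK, while the ratio at Cd48 was 1.24. The 2 peaks behind this ratio did not overlap. The GSK peak that did overlap the Veh peak had a fold of 2.86, a ratio of 0.666, so the direction depends on which GSK peak is taken. The Pol II summit in Veh lay at −266 bp from the TSS and the stronger GSK summit at 76 bp. H3K27ac was listed at Cd48 in Veh alone, at a fold of 3.49.

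The Cd48 promoter also bordered the strongest H3K4me1 peak of the window by −log10 p. The Veh and GSK peaks there together spanned chr1:171679617-171680770, centred at −1.80 kb from the TSS. Their folds were 3.26 in Veh and 3.92 in GSK and their −log10 p values 15.1 and 27.4. The Veh peak was 1071 bp wide and the GSK peak 500 bp, so the folds are averages over unlike lengths. Both peaks fell outside the 1 kb used for promoters. Over all genes, H3K4me1 in Veh only was found at 3.43% and in GSK only at 9.89%.

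The 5 self-binding receptors, Slamf1, Ly9, Cd84, Slamf6 and Slamf7, all had H3K4me3, and their peaks were of 2 shapes. Those of Slamf1, Ly9 and Cd84 were narrower than the others and moderate in fold. Slamf1, also known as CD150 and as a marker of blood stem cells, had a fold of 5.40 in Veh and 5.97 in GSK. Ly9, also called SLAMF3, had 5.69 and 5.93. Cd84, or SLAMF5, had 5.10 and 5.55. All 3 were higher in GSK, by ratios of 1.04 to 1.10, and were 1168 to 1373 bp wide. These widths were at percentiles 60.8 to 72.8 of their lists, so the peaks were narrow only beside those of the other members.

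The peaks of Slamf6 and Slamf7, like those of Cd48 and Sh2d1a, were broad and low in fold. Slamf6 had a fold of 3.84 in Veh and 3.28 in GSK. Its GSK peak was the wider, 2432 bp against 2171 bp, and had the higher −log10 p, 35.3 against 34.3. From its signal tracks the study reported gains of H3K4me3 and H3K27ac under GSK at the Slamf6 promoter. A lower peak fold does not measure a loss there, and neither H3K27ac list had a peak at the Slamf6 TSS. Slamf7, also called CRACC, which marks cytotoxic lymphocytes and plasma cells, had 3.57 and 3.54. In Sh2d1a the folds were 3.52 and 3.29. All 4 broad peaks were lower in GSK, by ratios of 0.854 to 0.993, and their widths of 2171 to 2825 bp were above 94.2% of peaks in the Veh list and 96.5% in the GSK list. In the histone lists the fold of a peak is an average over its whole length, so fold and width are not independent measures.

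Over the 7 members the median GSK to Veh ratio of H3K4me3 fold was 0.993, with 3 higher and 4 lower in GSK. Over the 12997 genes with H3K4me3 in both lists it was 1.02, and 59.3% were higher in GSK. The 3 members above 1 were those with the narrower peaks and the 4 below it those with the broad peaks. This split was read off the same values and has no test. Of the 4, the fold percentile was slightly higher in GSK at Slamf7 (5.95 in Veh, 6.20 in GSK) and Cd48 (5.30 and 5.39). It was lower in GSK at Slamf6 and Sh2d1a. The −log10 p was higher in GSK at Slamf1, Cd84 and Slamf6 and lower at the other members.

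**Figure D3:**
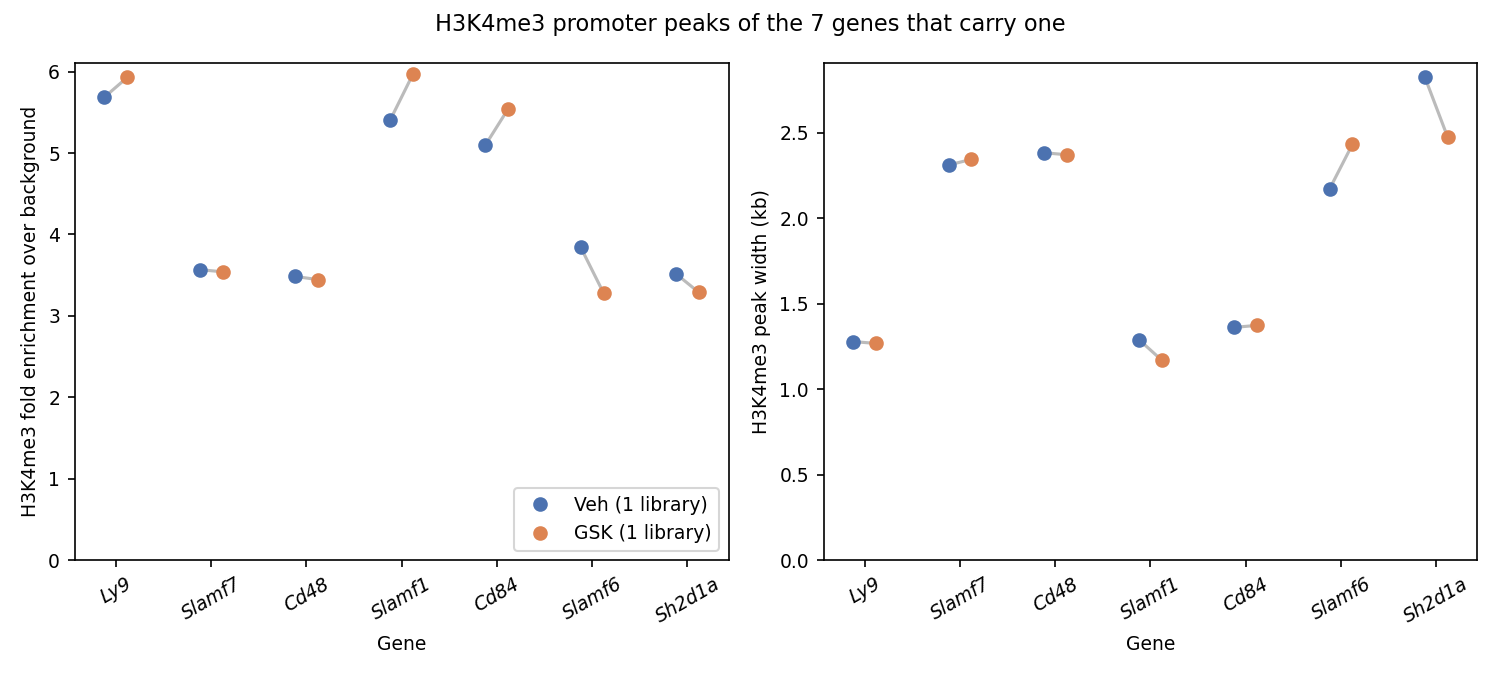
H3K4me3 fold enrichment over background (left) and peak width in kb (right) at the 7 genes with a peak, 1 point per library, Veh in blue and GSK in orange. Ly9, Slamf1 and Cd84 have the higher folds, from 5.10 to 5.97, with widths up to 1373 bp, and the other 4 genes have folds from 3.28 to 3.84 with widths from 2171 bp.

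Where the H3K4me3 peak lay differed between genes. At Slamf1 it began 9 bp after the TSS in Veh and at −12 bp from it in GSK. At Slamf6 it began 69 bp after the TSS in Veh and 38 bp after it in GSK and reached 2239 and 2469 bp into the gene, over the TSS of an antisense long noncoding RNA, Gm37065, at position 171919356. At Cd84 the peak began only 876 bp after the TSS in Veh and 831 bp after it in GSK, so it shared 125 and 170 bp with the promoter window. Cd84 would no longer count as marked if at least 200 bp of overlap were asked for.

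Slamf7 has 2 annotated TSSs, and its H3K4me3 lay at 1 of them. The TSS at 171648999 had H3K4me3 in both treatments, with the peak beginning 13 bp after it in Veh and at −23 bp from it in GSK. The upstream TSS at 171653037 had no peak of any of the 12 lists within 1 kb. In Sh2d1a, the peaks began 96 bp (Veh) and 97 bp (GSK) after the first TSS at 42502565 and ran on to 2920 and 2569 bp from it, close to or over the TSS at 42505322.

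The promoter sequences of Slamf7, Cd48 and Slamf6 are shown from RefSeq (GRCm38.p6), from 250 bases before to 50 bases after the start in the direction of transcription, because the broad H3K4me3 peaks of Slamf7 and Slamf6 begin in or beside them and that of Cd48 spans its sequence. Capitals again mark the AP-1, RUNX and TCF/LEF letters on either strand. The Slamf7 sequence, chr1:171648950-171649249 on the minus strand, belongs to the marked TSS and holds the AP-1 letters at base −42 from it. The Cd48 sequence, chr1:171681742-171682041 on the plus strand, holds RUNX letters at base −76 and TCF/LEF letters at base −168 from the start. That of Slamf6, chr1:171917212-171917511 on the plus strand, holds none of the 3.
Slamf7: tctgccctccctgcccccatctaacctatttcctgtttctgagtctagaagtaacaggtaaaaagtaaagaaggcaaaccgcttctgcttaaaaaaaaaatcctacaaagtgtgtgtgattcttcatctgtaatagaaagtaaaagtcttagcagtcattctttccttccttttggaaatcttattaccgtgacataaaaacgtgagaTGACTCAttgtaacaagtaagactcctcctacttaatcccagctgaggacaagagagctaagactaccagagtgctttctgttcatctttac
Cd48: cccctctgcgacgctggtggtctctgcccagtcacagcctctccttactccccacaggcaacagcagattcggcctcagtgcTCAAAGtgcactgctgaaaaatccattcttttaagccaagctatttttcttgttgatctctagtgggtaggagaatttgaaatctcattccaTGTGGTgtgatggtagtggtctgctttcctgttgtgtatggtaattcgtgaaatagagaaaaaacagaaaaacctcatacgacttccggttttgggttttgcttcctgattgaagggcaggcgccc
Slamf6: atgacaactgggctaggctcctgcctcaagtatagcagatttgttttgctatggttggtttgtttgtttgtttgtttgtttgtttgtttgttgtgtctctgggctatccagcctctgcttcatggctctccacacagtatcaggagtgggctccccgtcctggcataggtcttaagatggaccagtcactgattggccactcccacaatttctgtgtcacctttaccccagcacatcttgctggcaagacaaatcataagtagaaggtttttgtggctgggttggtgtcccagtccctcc

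These promoters were poor in CpG, the dinucleotide that is dense at most promoters with H3K4me3. In the 1 kb on either side, the 11 TSSs of the 8 members had a G+C content of 36.0% to 51.0%, against a median of 51.2% over 31508 TSSs. The ratio of observed to expected CpG was 0.106 at Cd84 to 0.287 at Sh2d1a, against a median of 0.441. Every member TSS was below both medians. Of the 9077 genes whose TSSs all had a CpG ratio no higher than the highest of a member, 6.56% had a promoter H3K4me3 peak in Veh and 6.79% in GSK, against 7 of the 8 members. Promoter LSD1, Pol II and H3K27ac were likewise at few of these genes, 3.96%, 4.34% and 3.06% in Veh and 3.44%, 3.47% and 0.914% in GSK.

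Pol II lay at 4 members in all. Cd48, described above, and Sh2d1a had it in both treatments. Slamf1 had it in Veh only, at a fold of 4.99, percentile 72.5, with the summit 151 bp after the TSS. Slamf6 had it in GSK only, at a fold of 3.00, percentile 15.8, with the summit 361 bp after the TSS, a −log10 p of 4.89 and a −log10 q of 1.66. Of all genes, 7.35% had promoter Pol II in Veh only and 2.95% in GSK only. Slamf7, Cd84, Cd244a and Ly9 had no Pol II peak at a TSS in either list.

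H3K27ac and H3K4me2 at the promoters were seen at few members, and at none in both treatments. Cd48 and Cd84 had H3K27ac in Veh only, Cd84 at a fold of 3.89 with 15 bp of overlap. Sh2d1a had H3K27ac in GSK only, at a fold of 4.26, percentile 17.2 of its list. Its −log10 q was 3.76 in a list that began at 3.03, and it was lost with stricter peaks. Over all genes 12.3% had promoter H3K27ac in Veh only and 0.333% in GSK only, and the GSK list was far the shorter, with 2751 peaks against 7410. By the read numbers stated in the study's supplement the GSK H3K27ac library was also much the shallower, so an H3K27ac peak listed in Veh alone, here or elsewhere in the window, cannot be told apart from a difference in depth. Ly9 had H3K4me2 in Veh only, at a fold of 4.20, as had 12.8% of all genes, with 1.94% in GSK only. H3K4me1 lay at Slamf6 in both treatments, at folds of 3.29 and 3.00, and at Slamf1 in GSK only, at 2.24.

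The adaptor gene Sh2d1a was the only member with LSD1 at its promoter in both treatments. The LSD1 fold was 4.80 in Veh, percentile 67.3, and 3.38 in GSK, percentile 12.1. Over the 8348 genes with promoter LSD1 in both lists the median GSK to Veh ratio was 1.15 and 72.2% were higher in GSK, while the ratio at Sh2d1a was 0.704. Its Pol II fold was 4.78 in Veh and 2.96 in GSK, a ratio of 0.620, with another Veh peak at 3.59, 1089 bp after the first TSS. For Pol II the median ratio over 5759 genes was 0.811 and 17.6% were higher in GSK, so a lower GSK fold was common. Within 50 kb of the gene the 12 lists held 11 peaks.

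Away from the promoters the window was dense in H3K4me1. Veh cells had 30 H3K4me1 peaks in it and GSK cells 27, which is 61.3 and 55.1 per Mb and 4.69 and 3.61 times the density of the whole genome. LSD1 had 13 peaks in Veh and 7 in GSK, 3.29 and 1.89 times the genome. H3K27ac had 7 and 1, or 5.08 and 1.95 times, Pol II 8 and 7, or 2.75 and 2.44 times, H3K4me3 6 and 7, or 2.04 and 2.23 times, and H3K4me2 6 and 1, or 2.12 and 0.570 times. The locus of Cd28, Ctla4 and Icos, other T-cell receptors of signals from neighbouring cells, had 73.5 H3K4me1 peaks per Mb in Veh and 90.4 in GSK with the same flanks, and 25.4 and 11.3 LSD1 peaks per Mb. That locus thus had more H3K4me1 peaks per Mb than the SLAM cluster in both treatments. Its LSD1 density was near that of the SLAM cluster, which had 26.5 per Mb in Veh and 14.3 in GSK. These LSD1 densities rest on 9 and 4 peaks there and 13 and 7 in the SLAM cluster.

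By class, the 30 Veh H3K4me1 peaks divided into 2 at a member TSS, 2 at the TSS of another gene, 1 in an exon, 13 in introns and 12 between genes, and the 27 GSK peaks into 3, 1, 0, 9 and 14. LSD1 in Veh had 1 peak at a member TSS, 6 in introns and 6 between genes, and in GSK 4 in introns and 3 between genes. All 6 Veh H3K4me3 peaks and 6 of the 7 GSK peaks lay at a member TSS. Of the 7 Veh H3K27ac peaks 2 lay at a member TSS, 2 in introns and 3 between genes, and the 1 GSK peak lay between genes.

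H3K4me2 in Veh had 1 peak at a member TSS, 1 at Gm37065, 2 in introns and 2 between genes, and in GSK 1 in an intron. Pol II had 2 peaks at member TSSs in Veh, 4 in introns and 2 between genes, and in GSK 3, 1 and 3. In the window 1 of the 8 Veh Pol II peaks and 1 of the 7 GSK peaks, both at Cd48, overlapped the other list, against 39.1% and 39.6% over the genome. For H3K4me1, 21 of the 30 Veh peaks and 21 of the 27 GSK peaks overlapped the other list, against 87.8% and 75.2% over the genome.

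The other genes with a start in the window carried few peaks. The microRNA gene Mir7683, inside Slamf7, had H3K4me1 in both treatments, and the predicted noncoding RNA Gm35200, inside Cd244a, had H3K4me1 in both and H3K4me2 in Veh. Gm37065, inside Slamf6, had H3K4me3 in both and H3K4me1 and H3K4me2 in Veh. Itln1, Tma7-ps and the predicted Gm22950 and Gm51686 had none.

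Of the 13 Veh LSD1 peaks in the window, 6 were overlapped by a GSK peak, 46.2% against 54.6% of all Veh LSD1 peaks, and 7 were not. In intron 3 of Cd84, 1 GSK peak had no Veh counterpart. Away from TSSs 6 of 12 were overlapped, 50.0% with a Wilson 95% interval of 25.4% to 74.6% that covers counting error only. Over the genome it was 34.9% of 12563 such peaks. Peaks that were kept had Veh folds of 4.19 to 9.84 with a median of 4.98, and peaks that were not kept 3.06 to 5.70 with a median of 3.72, so the ranges overlapped.

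The kept sites were spread over the cluster. Site 5, whose sequence is given above, lay at −42.5 kb from the Slamf1 TSS, in the long gap after Cd48. It had a fold of 9.84 in Veh and 8.71 in GSK, percentiles 98.2 and 97.3 of the lists. No peak of any other antibody overlapped it. Site 12, at −14.6 kb from the Slamf6 TSS, had folds of 6.44 and 5.42, and site 13, in intron 3 of Slamf6 19.8 kb past the TSS, had 4.92 and 3.33, also with no other mark.

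Sites 5, 12 and 13 had 1 more feature in common: all 101 bases at their summits are soft-masked in the reference, that is, annotated as repeats or low-complexity sequence. The same held for the GSK-only site 11, and for 5.57% of all Veh LSD1 summits and 5.39% of all GSK summits. Among Veh LSD1 peaks away from TSSs it held for 6.18% of those overlapped by a GSK peak and 9.94% of those not overlapped. At the 7 Veh-only sites the masked share was from 0 to 87.1%. Whether repeats had a part in these peaks was not tested.

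The other kept sites lay at Slamf7 and Slamf1. Site 2, 19.6 kb past the marked Slamf7 TSS and 3′ of the gene, had folds of 4.58 in Veh and 4.85 in GSK and was the only kept site whose GSK fold was the higher. Site 3, in an intron of Slamf7 5.18 kb past the TSS, had 4.19 and 2.96 and overlapped a Veh Pol II peak. Site 8, in intron 4 of Slamf1, had 5.05 and 4.88.

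**Figure D4:**
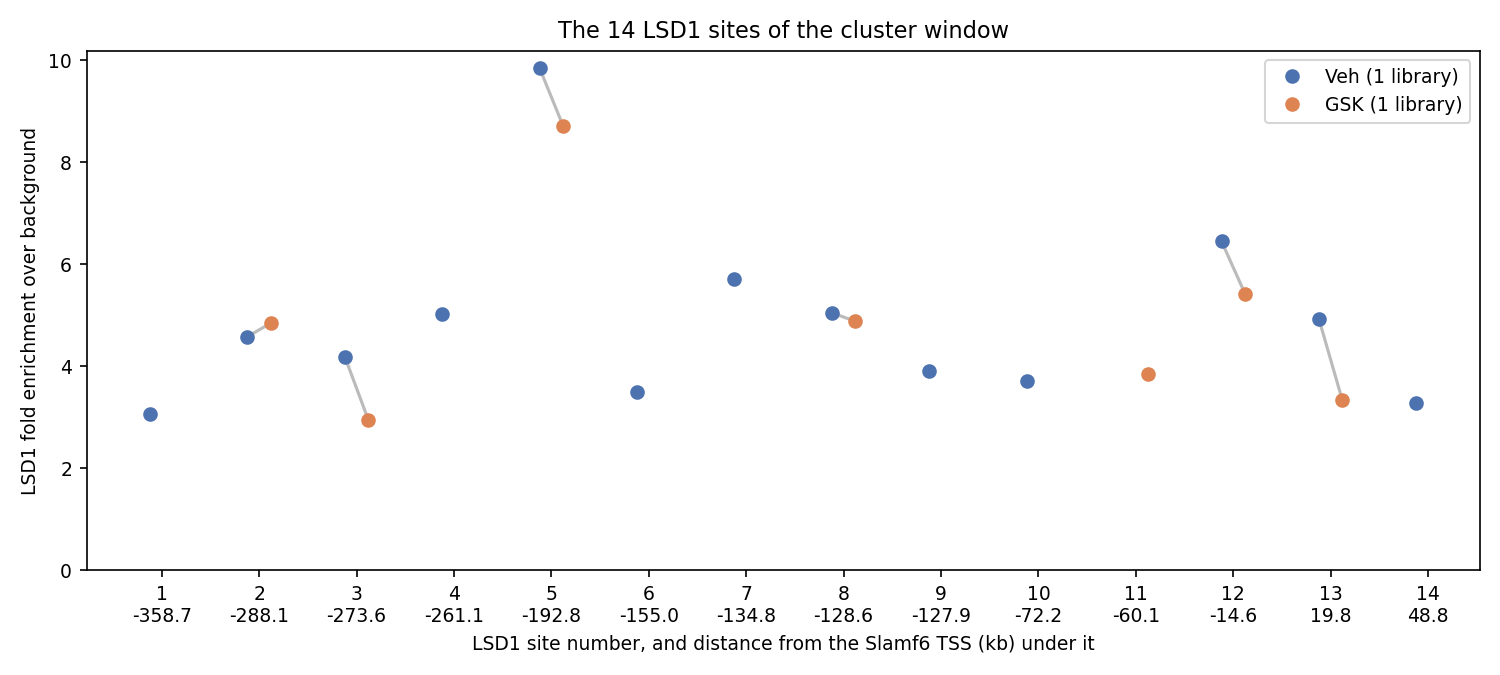
LSD1 fold enrichment over background at the 14 sites in genome order, with the distance from the Slamf6 TSS in kb under each number, Veh in blue and GSK in orange, joined where both lists have a peak. Site 5 stands highest in both, at 9.84 and 8.71, and 7 sites have a Veh point only.

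An H3K4me1 or H3K4me2 peak overlapped 6 of the 7 sites with LSD1 in Veh only and 1 of the 6 kept sites, site 8. Over all Veh LSD1 peaks of the genome, promoters included, it was 49.8% of those not overlapped by GSK and 74.2% of those overlapped. In the window 12 of the 13 Veh peaks lay away from TSSs, against 12563 of all 21252 Veh peaks of the genome. Among the peaks overlapped by GSK it was all 6 in the window and 4383 of 11597 over the genome. The genome shares are therefore not a like baseline for these sites. Site 7, in intron 3 of Slamf1 15.6 kb past the TSS, had the highest Veh fold of the 7 Veh-only sites, 5.70. At the same place the Veh lists had H3K4me2, at a fold of 4.03, and H3K27ac, at 4.02, and the GSK lists had neither. The GSK H3K4me3 list had a peak there, at a fold of 4.14, the only H3K4me3 peak of the window away from a member TSS. It was weak, with a −log10 p of 6.65, percentile 4.32 of its list.

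In intron 4 of Slamf1, site 9, with an LSD1 fold of 3.91 in Veh only, lay beside the kept site 8. The only GSK H3K4me2 peak of the window, chr1:171789077-171789456 with a fold of 4.89, overlapped both. In the lists as deposited, Slamf1 thus held H3K4me2 in Veh only at intron 3 and in GSK only at intron 4. With stricter peaks or lists of equal length the window had no Veh H3K4me2 peak, while the GSK H3K4me2 density stayed at 2.04 per Mb. Sites 1, 6, 10 and 14 overlapped H3K4me1 of both treatments, and site 4, at −3.36 kb from the upstream Slamf7 TSS, overlapped no other peak.

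The H3K4me1 and H3K4me2 peaks of Veh and GSK were joined where they overlapped, and regions that overlapped H3K4me3 or lay within 2.5 kb of any TSS were left out to give enhancers. The window held 39 joined regions, of which 27 were enhancers, 55.1 per Mb against 10.1 over the genome. Of the enhancers 12 lay in introns, 14 between genes and 1 in an exon. Of the 27, 14 had H3K4me1 in both treatments, 8 in Veh only and 5 in GSK only. Over the 26676 enhancers of the genome the shares were 67.1%, 9.87% and 22.5%.

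The share in Veh only, 29.6% with a Wilson 95% interval of 15.9% to 48.5%, was higher than the genome's, and the share in GSK only, 18.5% with an interval of 8.18% to 36.7%, included it. The intervals cover counting error only, and neighbouring enhancers are not independent. With both H3K4me1 lists at equal length the numbers were 12, 10 and 2. A Veh LSD1 peak lay at 4 of the 27 and at 17.5% over the genome, and Veh-only H3K27ac lay at 3 of the 27 and at 2.7% over the genome.

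In the lists as deposited, the Veh-only enhancers were all on the Cd244a side of the cluster. Among the 17 whose nearest member TSS was that of Cd244a, Ly9, Slamf7, Cd48 or Slamf1, H3K4me1 was in both treatments at 7, in Veh only at 8 and in GSK only at 2. Among the 10 nearest to Cd84 or Slamf6 it was in both at 7, in Veh only at 0 and in GSK only at 3. This grouping was made after the values were seen and has no test. It does not hold with lists of equal length. The GSK H3K4me1 peak at chr1:171848925-171849411, in intron 2 of Cd84, had a −log10 p at percentile 4.24 of its list. It then drops out and leaves a Veh-only enhancer nearest to Cd84. A Veh-only H3K4me1 region 2.94 kb past the Slamf6 TSS was no enhancer here only because it lay near the TSS of Gm37065. The Veh-only peaks had −log10 p values from 5.19 to 11.8 and the GSK-only peaks from 5.18 to 9.06, in lists that began at 5.08 and 4.99.

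**Figure D5:**
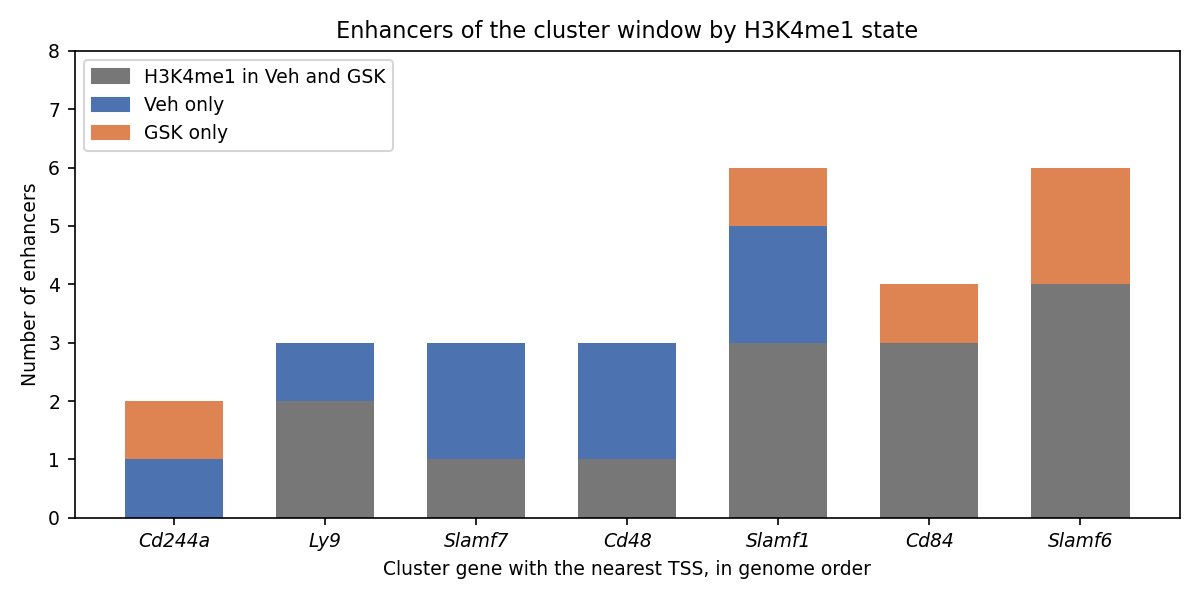
Number of enhancers by the cluster gene with the nearest TSS, in genome order, divided by whether H3K4me1 was listed in both treatments (grey), Veh only (blue) or GSK only (orange). In the lists as deposited, the bars of Cd84 and Slamf6 hold no Veh-only enhancer, and the 8 Veh-only enhancers are spread over the other 5 genes. With lists of equal length a Veh-only enhancer falls to Cd84.

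The element 3′ of Slamf7 carried the only H3K27ac peak of the window in both treatments. It was made of 2 H3K4me1 regions present in both, chr1:171626688-171628864 and chr1:171630124-171632211, with LSD1 site 2 between them. The Veh H3K27ac peak, chr1:171628236-171629207, had a fold of 3.82 and reached a few bases into the LSD1 site, into the stretch covered by the GSK LSD1 peak only. The GSK H3K27ac peak, chr1:171628882-171629104, had a fold of 4.06 and ended short of it. The H3K4me1 fold was 2.37 in Veh and 2.85 in GSK on the Ly9 side and 2.57 and 2.30 on the Slamf7 side. On the Ly9 side the peaks were 2075 bp wide in Veh and 759 bp in GSK, so those folds are averages over unlike lengths.

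The element downstream of Slamf6, chr1:171966263-171968085 and centred 49.7 kb past the TSS, had H3K4me1 at a fold of 2.88 in Veh and 2.77 in GSK. The −log10 p went the other way, 8.44 in Veh and 11.3 in GSK, and the 2 peaks overlapped only in part. LSD1, at site 14, was listed in Veh only at a fold of 3.29, with −log10 p 4.86, and H3K27ac in Veh only with a fold of 3.42. No H3K4me2 peak of either list lay there. From its signal tracks the study reported gains of H3K4me1, H3K4me2 and H3K27ac under GSK at a putative enhancer downstream of Slamf6. Presence in a peak list does not measure such a gain. Of the 6 enhancers nearest to Slamf6, 4 had H3K4me1 in both treatments and 2 in GSK only. The peaks of these 2 had −log10 p values of 5.81 and 5.18, at percentiles 7.92 and 0.641 of the GSK list. Both drop out with lists of equal length. In intron 1 of Slamf6, 4.02 kb past the TSS, another H3K27ac peak was listed in Veh only, at 3.04.

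The genes that share the members' promoter pattern were ranked by the mean absolute difference in fold percentile over the 12 lists. Nearest to Slamf7 were Zfp605, at 0.0977 percentile points, and Il7r, the interleukin-7 receptor chain, at 0.177, each with a peak or none in the same lists as Slamf7. Near to Cd48 was Socs1, an inhibitor of cytokine signalling, at 3.21. Nearest to Sh2d1a were Bcl6, at 6.52, and Mvp, at 7.13, the largest distances of any member. Car11 was near to Slamf6. For Slamf1 the nearest were Iars and Psmd13, for Cd84 Polh and Xpo5, for Cd244a Padi3 and Igsf23, and for Ly9 Pcdhgc4 and A430033K04Rik.

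No cluster gene was the nearest to another. The closest pair of members was Cd244a and Slamf7, at 3.33, which share an empty pattern in most lists rather than a mark. For a gene with few peaks the distance is small by construction, since most lists hold 0 for both genes.

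Signalling genes that act downstream of the receptors were read in the same way. Of 18 genes for adaptors, kinases and phosphatases, such as Fyn, Lck, Ptpn6 (SHP-1), Ptpn11 (SHP-2) and Inpp5d (SHIP-1), 16 had promoter H3K4me3 in both treatments. The 2 without were Sh2d1b1 and Sh2d1b2, which encode the SAP-related EAT-2 adaptors of natural killer cells. LSD1 lay at 14 of the 18 in Veh and 13 in GSK, with Inpp5d and Dok2 in Veh only and Ptpn6 in GSK only. Of all genes, 50.2% had H3K4me3 in Veh and 51.3% in GSK, and 36.5% and 41.8% had LSD1.

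Pol II lay at 13 of the 18 in each treatment, with Csk and Rasa1 in Veh only and Dok1 and Prkcq in GSK only. Its share of all genes was 29.4% in Veh and 25% in GSK. H3K27ac lay at 10 in Veh and 4 in GSK, and H3K4me2 at 9 and 4, with no gene in GSK only for either. The shares of all genes were 20.6% and 8.61% for H3K27ac and 39.2% and 28.3% for H3K4me2. In GSK only they were 0.333% and 1.94%. The depth limit given for H3K27ac holds for these genes too, and Veh was also the deeper for H3K4me2. H3K4me1 lay at 8 in each, with Csk and Nck1 in Veh only and Inpp5d and Dok1 in GSK only. Its share of all genes was 30.4% in Veh and 36.9% in GSK. Of the related receptor genes outside the cluster, Cd2 had H3K4me3 in both treatments, and Slamf8 and Slamf9, known from myeloid cells, had no promoter peak in any of the 12 lists.

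Markers of the labelled cells and of others were read in the same lists. All 5 CD8 T cell genes (Cd3d, Cd3e, Cd3g, Cd8a and Cd8b1) had promoter H3K4me3 in both treatments. Of the other lists it lay at 1 of 3 CD4 T cell genes (Zbtb7b, not Cd4 or Foxp3), 1 of 5 B cell genes (Cd79b), 1 of 5 myeloid genes (Cd14) and 0 of 2 natural killer genes, in Veh and GSK alike. Since Cd48, Cd84 and Ly9 are used by many blood cells, peaks at them are not particular to T cells, and the part of other cells in these values was not tested.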

How the data were processed

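ChIP-seq peak lists of 12 libraries were used, 1 per antibody and treatment, with no replicate. The 4 input samples have no peak list and were not analysed here. Per the study's methods, the authors mapped reads to mm10 with Bowtie2, dropped duplicate reads (Samtools) and ran MACS2 against input, at a p cutoff of 0.001. The fold enrichment (a ratio of ChIP signal to background), the −log10 p and −log10 q and the score of each peak are the deposited values, as the authors made them. The score repeats −log10 p or −log10 q on another scale and was used only as a check. Peaks of LSD1 and Pol II are narrow, with summits, and begin at a −log10 p near 3, and the histone lists are broad regions and begin at a −log10 q near 3, so they were called more strictly. No read numbers are in the lists, and the length of a list depends on depth. The study's supplement states unequal depths: Veh was deeper for H3K27ac, by far, and for H3K4me2, GSK was deeper for H3K4me1 and Pol II, and LSD1 and H3K4me3 were close. These numbers were not used to scale any list.

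Analysis was carried out with Python 3.11.15. Genes were those with a curated RefSeq transcript (GRCm38.p6) on a chromosome with peaks, with 31508 TSSs. A gene was marked when a peak shared at least 1 bp with the 1 kb on either side of a TSS. Percentiles are ranks of fold within a list. The named genes were all members, every other gene with a TSS in the window, 3 related receptors, 18 signalling genes, marker genes, and for each member the 2 protein-coding genes of least mean percentile difference, some of which are not reported here. Members and lists were chosen with earlier results of these data known. Coordinates count the first base as 1. Promoter sequences from RefSeq were matched for 6 members, and Ly9 and Sh2d1a are named only. Overlap and class code was checked on simulated peaks. Alternatives were another promoter window, overlap or annotation, stricter peaks, lists of equal length, other flanks, another TSS limit and classes by summit.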

Additional observations from a re-analysis of the deposited data

How the results depend on the processing

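In all, 33 results were recomputed under 125 alternatives, and 96 of these values stayed close to the value given (for counts, within 1.5 times) while 29 did not. H3K4me3 at 7 members, 6 or 7 of them under each alternative, and the 6 kept LSD1 peaks, 4 to 6, were among those that stayed close. With stricter peaks (−log10 q of at least 2 for LSD1 and Pol II and 5 for histone marks) the members marked were 1 for Veh LSD1, 0 for GSK LSD1, 1 for GSK H3K4me1, 0 for Veh H3K4me2, 1 for Veh H3K27ac, 0 for GSK H3K27ac and 1 for GSK Pol II. Peaks per Mb became 8.17 for GSK LSD1, 28.6 and 24.5 for Veh and GSK H3K4me1, 0 for Veh H3K4me2, 6.13 and 0 for Veh and GSK H3K27ac, and 8.17 and 4.08 for Veh and GSK Pol II. Enhancers with H3K4me1 in both, Veh only and GSK only became 6, 3 and 1, since fewer peaks entered. With lists of equal length, Veh LSD1 marked 1 member, Veh H3K4me2 0 and Veh H3K27ac 1, Veh H3K4me2 and H3K27ac fell to 0 and 4.08 peaks per Mb, and 2 enhancers were GSK only. With a promoter window of 2.5 kb, GSK H3K4me1 marked 5 members and Veh H3K4me2 3. With 200 bp of overlap, Veh H3K27ac marked 1. With flanks of 100 kb, GSK H3K4me2 and GSK H3K27ac each had 3.39 peaks per Mb. Classing by summit or centre alone left 19 of the 120 peaks at a member TSS in place of 26, with 5 at another TSS and 49 in introns. Except for H3K4me3, the promoter results rest on 1 to 3 genes per list and unequal list lengths and depths limit the Veh-only and GSK-only states, most for H3K27ac. No paired analysis was possible because each antibody and treatment has 1 library.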
